A study of Mus musculus with 43 samples.

Results

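The insulin receptor signalling core described here is a set of 10 genes of the insulin pathway, chosen by name alone from the 42349 rows of a table of gene expression in mice: the receptors Insr and Igf1r, the receptor substrates Irs1 and Irs2, the phosphoinositide 3-kinase (PI3K) subunits Pik3r1 and Pik3ca, the kinases Akt1 and Akt2 and the transcription factors Foxo1 and Foxo3. All 10 had a row of their own, and none was joined with a neighbouring gene. RNA was sequenced from liver, brain, skeletal muscle and white adipose tissue of the inguinal depot (WAT) of female mice at 15 months of age. Wild-type mice (WT, Irs1+/+) and mice with a global knockout of Irs1 (KO, Irs1-/-) were either fed ad libitum (AL) or placed at 10 weeks of age on dietary restriction (DR), with 12 months of 30% DR by the time of sampling, which gives 4 groups in each tissue, WT AL and WT DR and the corresponding KO AL and KO DR. Where 4 values are listed for a tissue without naming the groups, they follow that order. The labels list 43 libraries in 16 groups, with 2 libraries in each WT AL group and in WT DR WAT and 3 in every other group. The chow was the same for all groups, and the knockout was global, so that no tissue serves as an undeleted control. The question was whether other members of the pathway were expressed differently in the groups labelled KO.

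Insulin binds the insulin receptor and insulin-like growth factors bind the closely related IGF1 receptor, and both receptors phosphorylate the docking proteins IRS1 and IRS2. These recruit PI3K, a dimer of a regulatory subunit such as the one Pik3r1 encodes and a catalytic subunit such as the one Pik3ca encodes, and its lipid product activates the AKT kinases. AKT keeps the FOXO transcription factors out of the nucleus. In the fasted liver, FOXO1 raises the transcription of Irs2 and of Igfbp1, a secreted IGF binding protein, and insulin lowers both. Loss of IRS1 leaves IRS2 as the main substrate in most tissues, and IRS2 is known for its roles in liver and in the beta cells of the pancreas.

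The sequences around the transcription start sites of Irs1 and Irs2 are shown because these substrates carry the question, and that of Igfbp1 because it was the 1 pathway gene called between genotypes in liver. Each runs 5′ to 3′ on the strand of the gene, from 250 bases before the RefSeq start to 50 bases from it on (GRCm38.p6). Irs1 lies at chr1:82291390-82291689 on the minus strand, Irs2 at chr8:11008880-11009179 on the minus strand and Igfbp1 at chr11:7197537-7197836 on the plus strand. Capitals mark the E-box CACGTG and the 7 letters TGTTTTG, or CAAAACA where they lie on the other strand, a core of the insulin response elements to which FOXO proteins can bind.
Irs1: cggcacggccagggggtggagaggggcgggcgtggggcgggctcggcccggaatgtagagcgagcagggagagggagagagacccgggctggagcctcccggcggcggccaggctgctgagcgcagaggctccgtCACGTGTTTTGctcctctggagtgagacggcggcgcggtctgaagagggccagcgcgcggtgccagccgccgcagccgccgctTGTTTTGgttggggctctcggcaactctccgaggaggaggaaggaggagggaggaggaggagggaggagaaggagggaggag
Irs2: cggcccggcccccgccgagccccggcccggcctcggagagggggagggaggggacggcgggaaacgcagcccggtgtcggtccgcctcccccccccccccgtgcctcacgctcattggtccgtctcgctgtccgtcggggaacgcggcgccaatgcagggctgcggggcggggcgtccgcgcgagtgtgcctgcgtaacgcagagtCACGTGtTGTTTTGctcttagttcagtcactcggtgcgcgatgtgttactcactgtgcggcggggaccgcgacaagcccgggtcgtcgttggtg
Igfbp1: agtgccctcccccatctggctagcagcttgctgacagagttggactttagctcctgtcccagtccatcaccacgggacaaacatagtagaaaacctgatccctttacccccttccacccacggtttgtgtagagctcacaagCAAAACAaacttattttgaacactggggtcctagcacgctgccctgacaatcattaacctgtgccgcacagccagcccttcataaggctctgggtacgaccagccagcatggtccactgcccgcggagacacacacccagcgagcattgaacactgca

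In the Irs1 window the E-box stood at -115 to -110, counted from the start site so that -1 is the base before it, and shared 2 bases with TGTTTTG at -111 to -105. A second TGTTTTG stood at -32 to -26. In the Irs2 window the E-box at -44 to -39 was followed after 1 base by TGTTTTG at -37 to -31. In the Igfbp1 window the letters stood on the other strand, at -108 to -102. Read on both strands, CACGTG was in 7.15% and TGTTTTG in 6.28% of 32851 windows of 300 bases, and both were in 0.408%. Of the 9 members with a window, Irs1 and Irs2 were those with both. The letters were chosen after the sequences had been seen, and a match is not evidence of binding. Another FOXO core, GTAAACA, was in 3.65% of windows and among the members in that of Akt1. Insr had no window in the table used.

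The deposited values are FPKM (fragments mapped to a gene, scaled to the length of its transcript and to the size of the library), 1 per gene and group with a 95% confidence interval. They are scaled to transcript length, so levels can be set beside each other between genes. Values of single libraries were not used here, so the spread between mice is not seen directly and the depth of each library is unknown. Tissues may share mice, which the labels do not link, so the 8 genotype comparisons of a gene may not be independent. Tests between tissues treat the tissues as independent. The interval is the only measure of error. The SD was taken from the interval. Over the members the median SD was between 22.4% of the FPKM for Irs1 and 72.9% for Pik3ca. A difference is the log2 ratio of the FPKM of the compared groups with its standard error (SE), tested with a two-sided Wald test against a normal distribution and adjusted by the Benjamini-Hochberg method over all entries of a tissue and comparison. Genes under an FDR of 10% are called differentially expressed. With a t distribution in place of the normal one, none of the genes named below was called. An interaction is the KO minus WT difference under DR less that under AL. In these bulk samples, fewer cells of a type and less RNA per cell cannot be told apart.

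Marker genes for each tissue were at their highest summed FPKM in the tissue named on the label. The groups were not equally free of other tissues. All 7 liver markers were at an FPKM of at least 1 in WT DR muscle, where they summed to 1926, against 13.6 to 62.0 in the other muscle groups. The 7 adipocyte markers summed to 602 in WT DR muscle and to between 1796 and 2674 in the other muscle groups. The 5 red blood cell markers were higher in the groups labelled KO than in WT on the same diet in 7 of 8 comparisons, the exception being WAT under AL, and ranged from 950 to 21030. In brain, the 7 brain markers summed to 3273 in WT DR and to between 6087 and 6956 in the other groups. In liver, the 7 liver markers summed to 33357 in WT AL and to between 75718 and 92231 in the other groups. The part of these markers in the differences given below was not tested.

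Irs1, the gene deleted in KO mice, was not lower in most groups labelled KO, so every direction below is that of the labels. In liver its FPKM was 4.70 in WT AL, 3.29 in WT DR, 5.95 in KO AL and 4.75 in KO DR. In muscle the values were 5.72, 5.48, 6.31 and 5.82. The groups labelled KO were at or above their WT counterparts in both tissues, with intervals that overlapped. In brain Irs1 was 2.47 in WT AL, 1.62 in WT DR, 3.49 in KO AL and 4.14 in KO DR, and the interval of KO DR, 2.41 to 5.87, lay above that of WT DR, 1.03 to 2.21. In WAT it was 2.47 in WT AL, 6.56 in WT DR, 5.37 in KO AL and 2.58 in KO DR, so that WT DR and KO AL were high and the others low. Over both diets and the 4 tissues, Irs1 was higher in the group labelled KO in 7 of 8 comparisons and lower in 1, WAT under DR.

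The gene is at chr1:82233101-82291416 on the minus strand (GRCm38), and the table gives a single value for the whole locus, so reads from inside and outside the part removed in the knockout are not separated. A gene on the opposite strand, Gm9747, overlaps the last exon of Irs1 and had an FPKM of 0 in all 16 groups. The processing notes do not say that strand was used in counting, and reads from both strands then cannot be told apart.

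**Figure D1:**
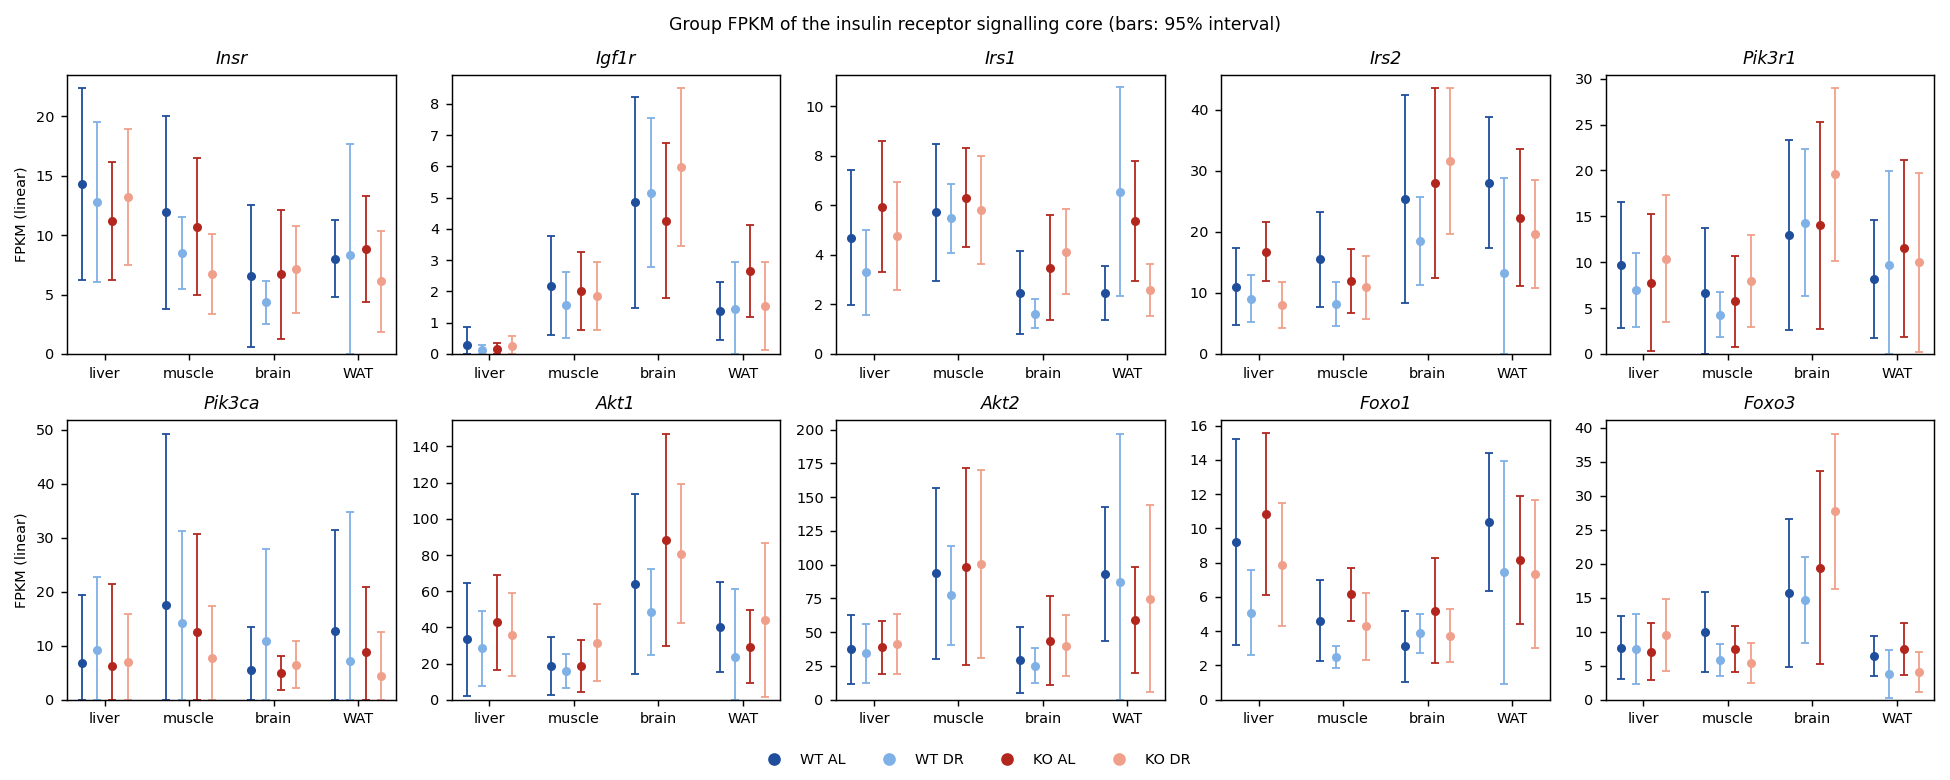
FPKM (linear axis from 0) of the 10 members in liver, muscle, brain and WAT, with a point for each group (WT in blue, KO in red, DR in the lighter shade) and bars for its 95% confidence interval. Irs1 in groups labelled KO sits at or above WT except in WAT under DR, where KO DR is at 2.58 and WT DR at 6.56.

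Under AL feeding no member, Irs1 included, was called between the groups labelled KO AL and WT AL. The count was 0 of 9 members tested in liver, where 0.316% of all entries were called, and 0 of 10 in muscle (0.681%), brain (0.203%) and WAT (1.29%). Of the 39 differences, 22 were positive, 4 of them of Irs1 itself, and 17 negative, and their median was 0.051. Of all entries, 61.4% were higher in KO AL in liver, 46.9% in muscle, 59.0% in brain and 45.2% in WAT. In the Wald test 1 of the 39, Irs1 in WAT, had an unadjusted p under 0.05 (log2 difference 1.12, SE 0.45), as did 2.9% of all entries. Where the SD was divided by the square root of the number of libraries, a smaller error, that difference was the 1 called, against 3.18% of entries. The median SE of the 39 differences was 0.64.

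Under DR 1 member was called, Irs1 in brain, which was 2.56-fold higher in KO DR than in WT DR (log2 difference 1.35, SE 0.40). No other member was called. The shares of all entries called were 1.16% in brain, 0.288% in liver, 2.23% in muscle and 0.283% in WAT. In brain the median of all entries was itself 0.23 higher in KO DR, and relative to that median Irs1 was 1.13 higher and no longer passed the test. It was also not called at an FDR of 5% or with no minimum FPKM. Of the 39 differences under DR, 27 were positive, 3 of them of Irs1 itself, and 12 negative, 1 of them of Irs1. Of all entries, 57.4% were higher in KO DR in liver, 52.9% in muscle, 64.9% in brain and 56.5% in WAT. Of the 39, 5 had an unadjusted p under 0.05, against 4.2% of entries. Besides Irs1 in brain and in WAT (-1.35, SE 0.55) these were Irs2 in brain (0.77, SE 0.39), Foxo3 in brain (0.92, SE 0.43) and Foxo1 in muscle (0.78, SE 0.37). With the smaller error 8 of the 39 were called, all higher in KO DR except Irs1 in WAT: Insr, Irs1, Irs2, Akt1 and Foxo3 in brain, Akt1 and Foxo1 in muscle and Irs1 in WAT. At that setting 8.42% of all entries were called over the 4 tissues, and 18.5% in brain.

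**Figure D2:**
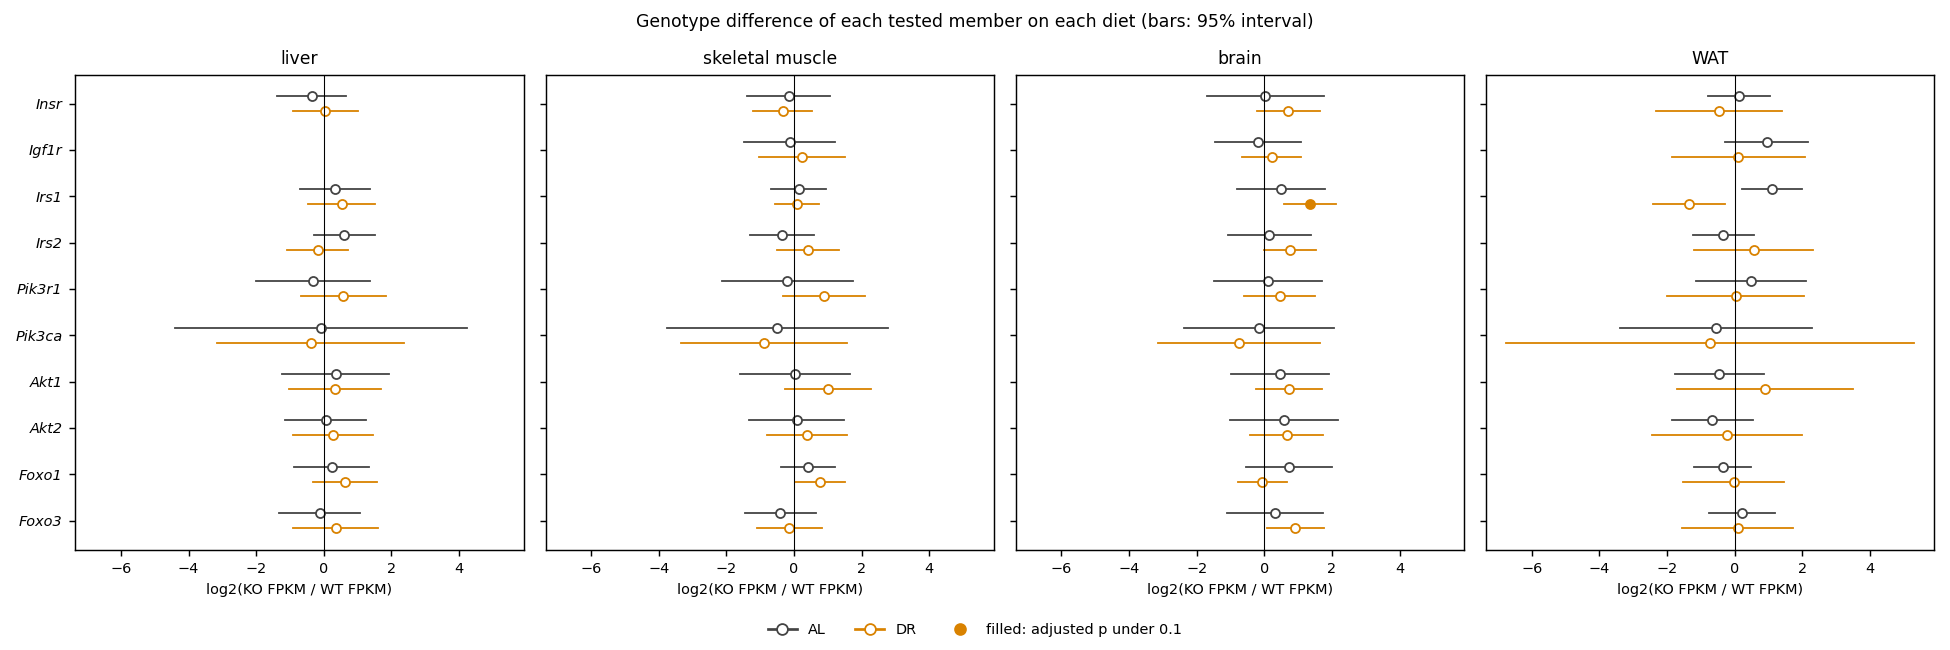
Log2 ratio of the FPKM of the group labelled KO to that of WT for each tested member, with AL in grey and DR in orange, bars for the 95% interval and a filled point for an adjusted p under 0.1. The filled point is Irs1 in brain under DR at 1.35, and the widest bars belong to Pik3ca.

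The receptors are taken first. Insr, the insulin receptor, was highest in liver in all 4 arms of the study. Its FPKM there was 14.3 in WT AL, 12.8 in WT DR, 11.2 in KO AL and 13.2 in KO DR. In muscle it was 11.9, 8.52, 10.7 and 6.74, in brain 6.56, 4.36, 6.69 and 7.11, and in WAT 8.03, 8.35, 8.84 and 6.11. Its level was higher in the group labelled KO in 4 of the 8 genotype comparisons and lower in 4. No neighbours in its order of tissues in WT AL, liver, muscle, WAT and brain, differed past the test.

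Igf1r, which binds IGF1 and IGF2, had a ratio of 16.8 between its highest and lowest tissue in WT AL, where that of every other member was at most 3.43. It was 4.86 in WT AL, 5.15 in WT DR, 4.26 in KO AL and 5.97 in KO DR brain, and every brain group was above every group of the other tissues. For this and the like orders below, the share of all entries was not counted. In muscle the values were 2.19, 1.57, 2.00 and 1.84, and in WAT 1.38, 1.42, 2.66 and 1.54. In liver it was 0.289, 0.142, 0.153 and 0.253, under the minimum of 1 that the test required, so no genotype difference of Igf1r was tested in liver. In WT AL the log2 difference of muscle from brain was not called (-1.15, SE 0.72). There the difference of liver from brain was -4.07 (SE 1.49) and that of brain from WAT 1.81 (SE 0.70), both called. Such calls were common. Of all entries, 20.7% were called between liver and muscle, 21.8% between liver and brain, 20.6% between liver and WAT, 24.8% between muscle and brain, 24.1% between muscle and WAT and 26.9% between brain and WAT. Over the 6 pairs the members gave 8 calls, 13 with an unadjusted p under 0.05 (28.4% of entries) and 23 calls with the smaller error (39.7%). The Insr to Igf1r ratio ran from 49.6 to 89.9 in liver and from 0.847 to 1.57 in brain, with muscle and WAT between them. The liver ratios are imprecise, since the SD of Igf1r there was 49.8% to 97.2% of its FPKM and its lower bound was 0 in 3 of 4 groups.

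Irs2, the other main receptor substrate and the one that could stand in for IRS1, was more abundant than Irs1 in all 16 groups. In liver its FPKM was 11.0 in WT AL, 9.06 in WT DR, 16.8 in KO AL and 7.99 in KO DR, so that KO AL was the highest and KO DR the lowest. Between the KO-labelled diets the log2 difference was -1.07 (SE 0.40), which did not pass the adjustment over all entries. The difference of KO AL from WT AL was 0.61 (SE 0.46, 95% interval -0.30 to 1.52). These intervals do not show that Irs2 was alike in KO and WT liver.

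In muscle Irs2 was 15.5 in WT AL, 8.23 in WT DR, 12.0 in KO AL and 10.9 in KO DR, with the highest and the lowest level both in WT. In brain it was 25.4, 18.5, 28.0 and 31.6, and in WAT 28.1, 13.3, 22.4 and 19.7. The group labelled KO was above WT in brain on both diets, in liver under AL and in muscle and WAT under DR, so that over the 8 comparisons Irs2 was higher in 5 and lower in 3. In WT AL its level was lower in liver than in WAT (-1.35, SE 0.50), and neighbours in the order WAT, brain, muscle, liver did not differ past the test. On the opposite strand, 9530052E02Rik overlaps the locus given for Irs2 and was between 0 and 0.388 FPKM.

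The ratio of Irs2 to Irs1 FPKM was lower in liver and muscle than in brain in all arms. In the groups labelled KO the divisor is the FPKM at the locus of the knocked-out gene. Whether those reads come from a working transcript was not tested, so the ratio is not read there as a balance of working substrates. The Irs2 to Irs1 ratio was 2.34, 2.75, 2.82 and 1.68 in liver and 2.71, 1.50, 1.90 and 1.88 in muscle. In brain it was 10.3, 11.5, 8.04 and 7.64, with both KO-labelled groups below both WT groups. In WAT it spread from 2.03 in WT DR to 11.4 in WT AL, with 4.16 in KO AL and 7.63 in KO DR between them. The further substrates Irs3 and Irs4 were tissue-restricted. Irs3, which is expressed in mouse adipocytes, was 57.3, 70.0, 31.5 and 55.0 in WAT and at most 5.81 elsewhere. Irs4 was 5.51, 2.11, 1.38 and 3.73 in brain and under 0.1 in the other tissues.

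**Figure D3:**
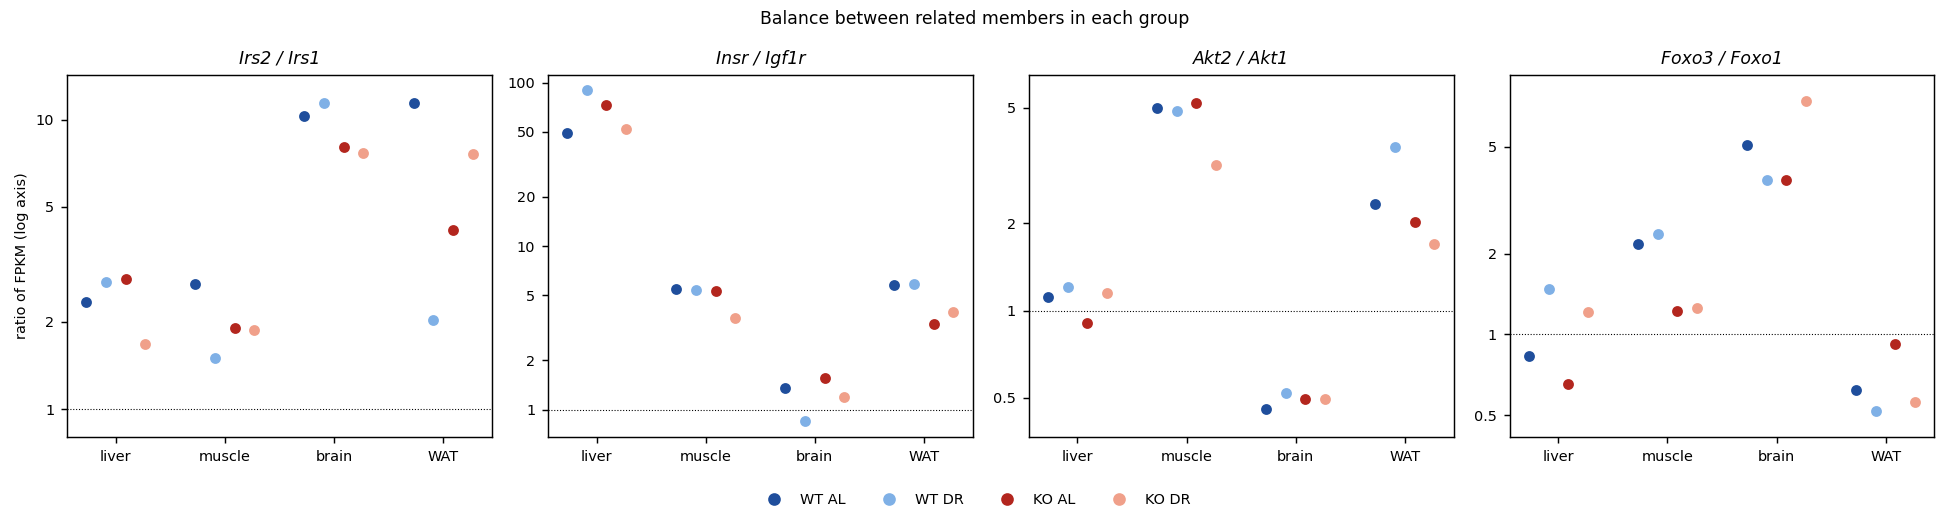
Ratio of the FPKM of Irs2 to Irs1, Insr to Igf1r, Akt2 to Akt1 and Foxo3 to Foxo1 in each group (log axis, dotted line at 1), by tissue. Insr to Igf1r is at 49.6 or more in liver and at 1.57 or less in brain, and Akt2 to Akt1 is at 3.17 or more in muscle and at 0.521 or less in brain.

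Of the PI3K subunits, Pik3r1, the regulatory subunit, was highest in brain, where all 4 groups (13.0, 14.3, 14.0 and 19.6) were above all groups of the other tissues. Pik3r1 did not differ past the test between brain and any other tissue in WT AL. It ranged from 6.98 to 10.4 in liver, from 4.30 to 7.92 in muscle and from 8.15 to 11.5 in WAT. It was higher in the group labelled KO in 6 of 8 comparisons, with the largest difference in muscle under DR (0.88, SE 0.62). Pik3ca, the catalytic subunit, ranged from 4.37 to 17.6 and was below its WT counterpart in each of the 8 genotype comparisons. Its differences, from -0.90 to -0.092, were smaller than their SE of 1.13 to 3.08. In only 2 of its 16 groups was the lower bound of the interval above 0, so neither a change nor its absence could be shown at this precision.

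The AKT kinases had their highest FPKM in different tissues. Akt1, the more broadly expressed form, was highest in brain at 64.0, 48.6, 88.3 and 80.8, above every group of the other tissues. In WT AL no difference of Akt1 between brain and another tissue was called. Akt2, the form most closely tied to glucose uptake in muscle and fat, was 93.6, 77.3, 98.6 and 100.4 in muscle and 93.1, 86.8, 59.1 and 74.9 in WAT. In brain it was 29.2, 25.3, 43.8 and 40.0. The Akt2 to Akt1 ratio, of group values without an error, was thus 3.17 to 5.22 in muscle and 0.457 to 0.521 in brain. Between muscle and brain in WT AL, neither Akt1 (-1.78, SE 0.84) nor Akt2 (1.68, SE 0.78) was called. In WT AL the difference of Akt2 between brain and WAT was called (-1.67, SE 0.72).

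Akt1 was higher in the group labelled KO in 7 of 8 comparisons, all but WAT under AL, and no difference was called. The largest was in muscle under DR, 15.8 in WT DR and 31.6 in KO DR (1.00, SE 0.65). Akt2 was higher in 6 and lower in 2, both in WAT, with differences from -0.66 to 0.66 and SEs from 0.55 to 1.13.

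Of the FOXO factors, Foxo3 was highest in brain (15.7, 14.6, 19.4 and 27.7), where every group was above every group of the other tissues. In WT AL no difference of Foxo3 between brain and another tissue was called. Foxo1, the main FOXO of liver metabolism, was 9.22, 5.07, 10.9 and 7.88 in liver, 10.4, 7.43, 8.14 and 7.32 in WAT, 4.60, 2.50, 6.15 and 4.28 in muscle and 3.11, 3.88, 5.19 and 3.73 in brain. In WT AL, Foxo1 was higher in liver than in brain (1.57, SE 0.67) and lower in muscle and brain than in WAT (-1.17, SE 0.46, and -1.74, SE 0.56). The Foxo3 to Foxo1 ratio was 3.75 to 7.42 in brain and 0.518 to 0.921 in WAT. Each gene was higher in the group labelled KO in 5 of 8 comparisons and lower in 3.

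Between the diets no member was called in either genotype, and the Wald test called 0 interactions of members. In WT the shares of entries called between DR and AL were 0.236% in liver, 0.224% in brain, 1.4% in muscle and 0.57% in WAT. In the Wald test 2 of 39 members' differences had an unadjusted p under 0.05 (3.42% of entries), Foxo1 in muscle (-0.88, SE 0.41) and Irs1 in WAT (1.41, SE 0.56). With the smaller error Irs2 in muscle joined them, which made 3 calls (3.39% of entries). All 10 members were lower in WT DR than in WT AL muscle, where 45.7% of all entries were higher. Their median was -0.48 against -0.063 over all entries. Among them, WT AL and WT DR had 4.60 and 2.50 for Foxo1, 15.5 and 8.23 for Irs2 and 5.72 and 5.48 for Irs1. Relative to the median of all entries, the difference of Irs1 there was 0.00062. WT DR muscle is the group with the high liver and low adipocyte markers.

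In the groups labelled KO, the shares called between DR and AL were 0.611% in liver, 0.365% in brain, 0.5% in muscle and 0.707% in WAT. Again 2 of 39 differences had an unadjusted p under 0.05 (2.88% of entries), Irs2 in liver, given above, and Irs1 in WAT (-1.06, SE 0.44), and the same 2 were called with the smaller error (4.86%). The diet differences of Irs1 in WAT thus had opposite signs in WT and in KO, and its interaction was -2.47 (SE 0.71), the 1 of 39 with an unadjusted p under 0.05 (2.14% of entries) and the 1 called with the smaller error (2.52%). The shares of entries with a called interaction were 0.086% in liver, 0.396% in brain, 0.371% in muscle and 0.121% in WAT. In the same WAT groups the 5 B cell and lymph node markers summed to 1577 in WT AL, 412 in WT DR, 1036 in KO AL and 990 in KO DR and the 5 macrophage markers to 581, 211, 304 and 236. The 5 mammary epithelium markers summed to 16.8 in WT AL, 25.7 in WT DR, 126.8 in KO AL and 98.6 in KO DR. Their sum was higher in liver, at 234 to 327, so they do not mark mammary epithelium alone. The 7 muscle markers summed to 523, 370, 984 and 602 in the WAT groups.

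The genotype difference of Irs1 under DR was 1.35 in brain and -1.35 in WAT. The difference between these tissues, a comparison added after the values had been seen, was 2.70 (SE 0.68) and did not pass the adjustment over all entries, where 0.0557% of entries were called.

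The rest of the pathway was read from 9 lists of 106 genes, all of them found in the table. In brain the Wald test called 0 pathway genes by genotype on either diet (0.203% of entries under AL and 1.16% under DR). At an unadjusted Wald p under 0.05 were 2 of 97 under AL and 8 of 95 under DR, as were 1.81% and 7.5% of all entries. Under DR, 78 of the 95 tested were higher in KO DR than in WT DR brain, where 64.9% of all entries were higher. In liver 1 of 86 was called under AL (0.316% of entries) and 0 of 86 under DR (0.288%). An unadjusted Wald p under 0.05 was found for 6 under AL (2.03% of entries) and 3 under DR (1.78%). In muscle 3 of 98 were called under AL (0.681%), all higher in KO AL, and 6 of 96 under DR (2.23%), 5 of them higher in KO DR. Those at an unadjusted Wald p under 0.05 numbered 6 under AL (3.18%) and 9 under DR (5.81%). In WAT 3 of 98 were called under AL (1.29%), all higher in KO AL, and 0 of 95 under DR (0.283%). Those at an unadjusted Wald p under 0.05 numbered 4 under AL (4.48%) and 2 under DR (1.5%).

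Among the 20 FOXO target genes, Igfbp1 was the one called in liver. Its FPKM was 34.9 in WT AL, 82.5 in WT DR, 270.1 in KO AL and 46.5 in KO DR, so that KO AL stood alone and its interval, 173 to 368, lay above those of the other groups. The log2 difference of KO AL from WT AL was 2.95 (SE 0.49) and that of KO DR from KO AL -2.54 (SE 0.43). The interaction was called too (-3.78, SE 0.72). Igfbp1 was under 2 FPKM in every other tissue. In the same liver groups the liver markers summed to 33357, 92231, 75718 and 88307, and the muscle, macrophage and adipocyte markers were highest in KO AL, at 74.5, 155 and 26.0. Irs2 had its highest liver level in the same group, at 16.8, as did Foxo1 at 10.9 and Socs3, a feedback inhibitor of receptor signalling, at 18.2 against 7.54 in WT AL (1.27, SE 0.57). None of those 3 was called.

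**Figure D4:**
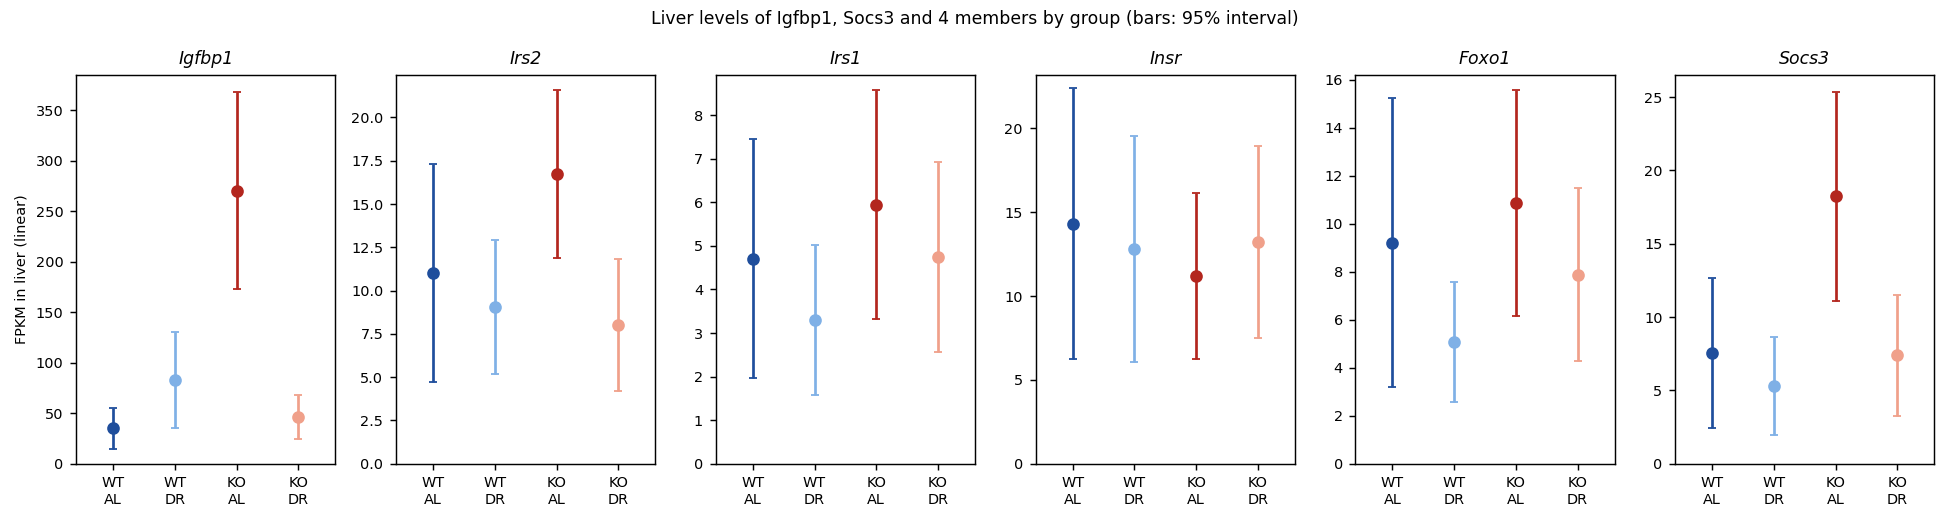
FPKM in liver (linear axes from 0) of Igfbp1, Irs2, Irs1, Insr, Foxo1 and Socs3 in each group, with bars for the 95% interval. KO AL is the highest group for Igfbp1 at 270.1, Irs2 at 16.8, Irs1 at 5.95, Foxo1 at 10.9 and Socs3 at 18.2, and the lowest for Insr at 11.2.

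Under AL in liver 12 of the 18 FOXO targets tested, Igfbp1 included, were higher and 6 lower in KO AL, with a median of 0.079 against 0.16 over all entries. In muscle 6 were higher and 12 lower, and the called gene was Cited2, a transcriptional co-regulator, at 19.5 in WT AL and 40.6 in KO AL (1.05, SE 0.26). In WAT 5 were higher and 12 lower, and the called gene was Fbxo32, a ubiquitin ligase of muscle atrophy, at 2.38 and 8.59 (1.85, SE 0.51), with muscle markers at 523 and 984 in the same groups.

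Under DR, called FOXO targets were found in muscle. Pck1, a gluconeogenic enzyme that adipocytes also express, was 50.5 in WT DR and 173.5 in KO DR (1.78, SE 0.57). G6pc, the glucose-releasing enzyme of liver, was 1.56 in WT DR and 0.0716 in KO DR muscle (-4.44, SE 1.18). It entered the test through WT DR alone, the group that reached the minimum FPKM of 1. The adipocyte markers summed to 602 and 2674 and the liver markers to 1926 and 62.0 in these groups. Under DR the median over the FOXO targets tested in muscle was -0.18, with 7 higher and 12 lower.

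**Figure D5:**
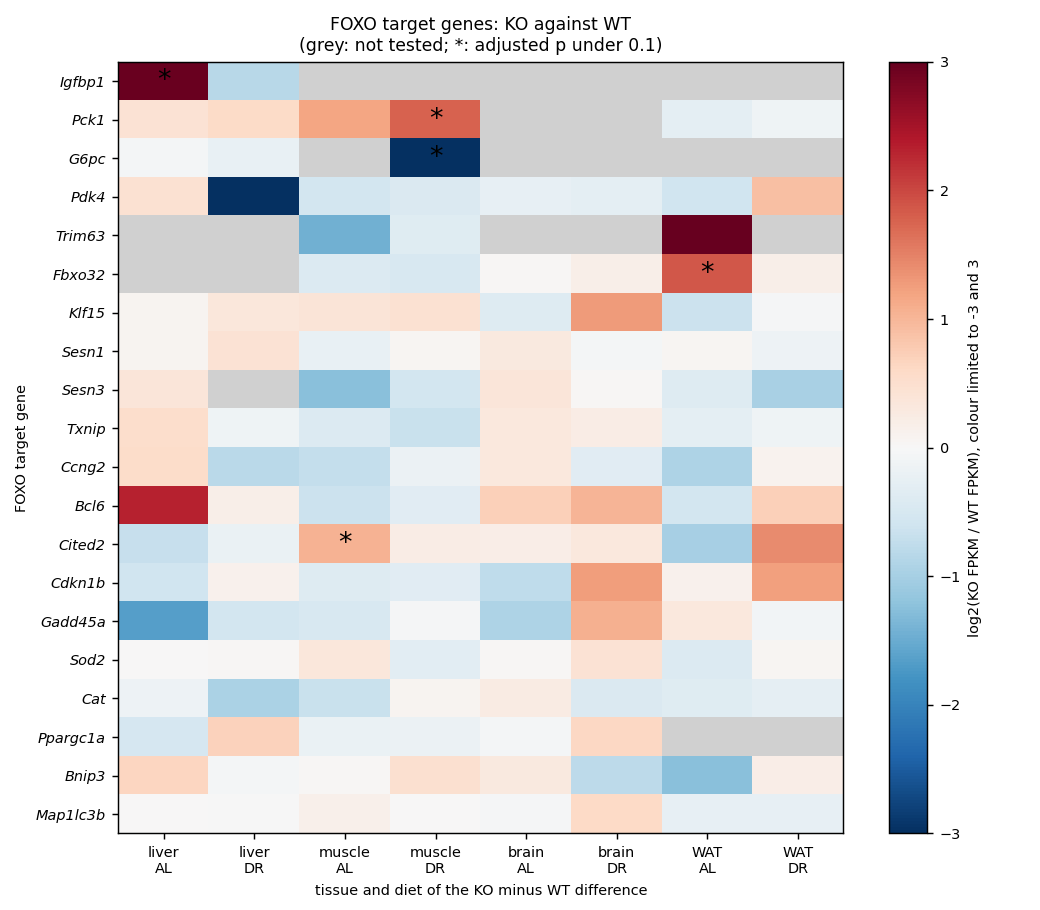
Log2 ratio of the FPKM of the group labelled KO to that of WT for 20 FOXO target genes, by tissue and diet, as colour limited to -3 and 3, with grey for genes not tested and a star for an adjusted p under 0.1. The stars are Igfbp1 in liver, Cited2 in muscle and Fbxo32 in WAT under AL and Pck1 and G6pc in muscle under DR.

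The remaining called pathway genes of muscle under DR were 2 substrates and 2 AKT effectors. Irs3 was 0.854 in WT DR and 5.81 in KO DR (2.77, SE 0.84), and 4.02 and 3.40 in the WT AL and KO AL groups. Under DR it entered the test through KO DR alone, since WT DR was under the minimum FPKM of 1. Sh2b2, an adaptor of the insulin receptor, was 2.63 and 8.82 (1.74, SE 0.56). In WT AL both were higher in WAT, at 57.3 and 13.9, than in muscle, at 4.02 and 1.80, and the low and high adipocyte markers lie in the same 2 muscle groups. Eif4ebp1, a repressor of translation that mTORC1 inactivates, was 47.4 and 135.2 (1.51, SE 0.48). Akt1s1, an AKT substrate in mTORC1, was 49.3 and 112.2 in a row joined with the microRNA gene Mir707 (1.19, SE 0.38).

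The insulin-induced list holds 9 genes, most of them of lipid synthesis, of which 2 were called between genotypes. In WAT all 9 were higher in KO AL than in WT AL, with a median of 1.46 against -0.061 over all entries, and Elovl6, which elongates fatty acids, and Thrsp, a regulator of lipogenesis, were called (4.10, SE 0.47, and 1.79, SE 0.46). In muscle 8 of 9 were higher and the same pair was called (1.62, SE 0.47, and 2.10, SE 0.42). In liver the direction was the other one, with 1 higher and 7 lower of the 8 tested and a median of -0.61. There 0 were called, with 2 at an unadjusted p under 0.05 in the Wald test (2.03% of entries). In brain 1 was higher and 8 lower, with a median of -0.31 and 0 called. Under DR none of the list was called between genotypes in any tissue by the Wald test. In that test 1 in liver (1.78% of entries) and 2 in muscle (5.81%) had an unadjusted p under 0.05. The direction under DR was 2 higher and 6 lower in KO DR WAT (median -0.16) and 6 higher and 1 lower in liver (0.52). It was 7 higher and 2 lower in muscle (0.66) and 8 higher and 1 lower in brain (0.64). WT DR was compared with the same WT AL groups, of 2 libraries each. Of the genes tested, 8 of 8 were higher in WT DR WAT (median 2.15) and 8 of 9 in muscle (0.53). In liver 4 of 8 were higher (0.14) and in brain 1 of 8 (-0.35). Elovl6 was called in WAT (5.19, SE 0.80), where 0.57% of entries were called. In muscle (1.4% of entries) Elovl6 (2.71, SE 0.41) and Thrsp (1.95, SE 0.42) were called. Between KO DR and KO AL, 7 of 8 were higher under DR in liver (median 1.20) and 7 of 9 in muscle (0.90). In brain 9 of 9 (0.47) and in WAT 7 of 9 (1.16) were higher, where 47.4% to 52.9% of all entries were higher over the 4 tissues. Thrsp was called in liver (4.15, SE 0.68, 0.611% of entries) and Elovl6 in muscle (1.75, SE 0.39, 0.5%). Between WT AL and KO AL WAT the adipocyte markers summed to 23950 and 16049 and the macrophage markers to 581 and 304. The mammary epithelium markers, whose sum was higher in liver, summed to 16.8 and 126.8. The part of these markers in the differences between the 2 groups was not tested.

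In the lists without a call the lowest unadjusted p of a genotype difference belonged to genes at several steps. These were Igf2 among the ligands (brain under DR, 1.07, SE 0.72), Socs3 among the receptor-level inhibitors (liver under AL, given above), Inppl1, a lipid phosphatase (brain under DR, 1.29, SE 0.45), Rictor, a subunit of the mTORC2 complex that phosphorylates AKT (muscle under AL, -1.01, SE 0.50), and the kinase Mapk3 of the Ras-MAPK arm (muscle under DR, 1.20, SE 0.56). Igf1, the ligand made mainly by liver, was 229, 696, 462 and 519 in liver, and its interval in WT AL, the liver group with the low liver markers, reached 0.

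The genes most alike to the substrates across the 16 groups, by Pearson's r of log2(FPKM + 1) after the mean of each tissue had been removed, were Pom121 (0.88), BC037034 (0.78) and TIGD5 (0.78) for Irs1 and Galc (0.96), Rusc2 (0.91) and H2-Q6 (0.91) for Irs2. They are the highest of 8885 candidates, the groups share their normalization, and the values are a description.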

How the data were processed

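RNA from 4 tissues of female mice was sequenced on an Ion Proton instrument after poly A selection. The authors trimmed reads with cutadapt 1.5 and sickle, mapped them to GRCm38 with BBmap and ran Cuffdiff 2.2.1 with correction for multiply mapped reads and geometric normalization. In Cuffdiff the dispersion between replicates was estimated for each group. The authors deposited 1 FPKM per gene and group with a 95% interval and a status. The table has 42349 rows, of which 873 join several genes. Depth per library is unknown.

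Python 3.11.15, numpy 2.4.6, pandas 2.3.3 and scipy 1.17.1 were used. The SD was taken as the distance from the FPKM to the upper bound over 2, and the SE of a log2 ratio came from the delta method. Whether the interval describes the mean of a group or its libraries is not given in the sources used here, so the SD divided by the square root of the libraries was an alternative. A test needed the status OK and a non-zero FPKM in every group compared, with an FPKM of 1 or more in at least 1 group. Two-sided Wald tests used a normal reference, and Benjamini-Hochberg adjustment ran over all entries of each tissue and comparison, with an FDR of 10%; single p-values are not printed, since each group rests on 2 or 3 libraries. The test was tried on simulated data with planted differences far larger than the genotype differences of the members. That trial does not show how well the test finds differences as small as theirs.

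Members and lists were chosen with earlier results of these data known. Named were all 10 members, every listed gene called between genotypes, the gene with the lowest p in each list without a call, and the 3 genes most alike to each substrate (members called by genotype, and Irs2). Igf1, Irs4 and the overlapping genes were named after their values were seen. Alternatives were an FDR of 5%, a t distribution, log2(FPKM + 1), no minimum FPKM, an FPKM of at least 5, centring on the median of all entries and leaving out joined rows. Promoter windows are from RefSeq on GRCm38.p6, matched by symbol for 9 of 10 members.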

Additional observations from a re-analysis of the deposited data

Results flagged for a closer look

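In liver, the KO minus WT difference of Igfbp1 was 2.95 under AL and had the opposite sign under DR, and the interaction of -3.78 (SE 0.72) passed the FDR of 10% in the Wald test. Igfbp1 was 270.1 FPKM in KO AL against 34.9 in WT AL, and 46.5 in KO DR against 82.5 in WT DR. Marker sums in the liver groups are given with WT first, and with AL before DR in each genotype. Those of liver were 33357, 92231, 75718 and 88307, those of red blood cells 2681, 3469, 13569 and 12047, those of muscle 2.49, 9.90, 74.5 and 27.7, those of macrophages 121, 67.6, 155 and 72.3 and those of adipocytes 12.6, 5.24, 26.0 and 16.1. Their part in the Igfbp1 result was not tested.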

How the results depend on the processing

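No paired analysis was possible because the deposited values are given per group and carry no replicate numbers. For the same reason no library could be left out in turn. With the SD divided by the square root of the libraries, the members called numbered 1 between KO AL and WT AL (3.18% of all entries over the tissues), 8 between KO DR and WT DR (8.42%), 3 between WT DR and WT AL (3.39%), 2 between KO DR and KO AL (4.86%), 1 in the interaction (2.52%) and 23 between tissues in WT AL. Between KO DR and WT DR, 0 members were called at an FDR of 5%, with a t distribution, with no minimum FPKM, with an FPKM of at least 5 and after centring on the median, while 5 had an unadjusted Wald p under 0.05. An FPKM of at least 5 left Irs1 in brain untested. Between tissues 8 differences of members were called, against 4 at an FDR of 5% and 0 with a t distribution, where 13 had an unadjusted Wald p under 0.05. Igfbp1 in liver passed under every alternative but the t distribution, which has few degrees of freedom and left none of the named genes called. Centring turned the sign of 12 members' differences, none of them called: KO AL minus WT AL of Akt2 in liver (-0.11) and of Insr (-0.10) and Pik3r1 (-0.018) in brain, KO DR minus WT DR of Insr in liver (-0.038), Igf1r in brain (-0.015) and Pik3r1 (-0.057) and Foxo3 (-0.0013) in WAT, WT DR minus WT AL of Irs1 in muscle (0.00062) and Akt2 in WAT (0.068), KO DR minus KO AL of Akt2 in muscle (-0.0026), and the interaction of Akt1 in liver (0.077) and Akt2 in brain (-0.021).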
